A study of Homo sapiens with 12 samples.

Results

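A set of 9 genes that encode, control or are tied to the sterol regulatory element binding proteins (SREBPs) were followed in poly(A) RNA of SHEP cells: INSIG1, INSIG2, SREBF1, SREBF2, SCAP, MBTPS1, MBTPS2, MYLIP and STARD4. They were taken by symbol, are 9 of the 28576 genes of the deposited table, and all 9 are among the 18674 genes that passed the filter on low values. The set was selected on the CPM values of these same libraries, proposed with earlier results in view and with the spread of INSIG1 among the OHT libraries known. Levels and differences of the 9 are therefore given as a description, with no test. SHEP is a human neuroblastoma line, and all cells here carried a MYCN-ER fusion, which 4-hydroxytamoxifen activates, and a doxycycline-inducible short hairpin RNA against TCEAL1. The groups were OHT_Dox (200 nM 4-hydroxytamoxifen and 1 µg/ml doxycycline), OHT (200 nM 4-hydroxytamoxifen alone), Dox (1 µg/ml doxycycline alone) and Ctrl (neither compound), with 3 libraries each. The comparisons ask what MYCN-ER activation did with and without the hairpin, and what the hairpin did with and without active MYCN-ER. No group here received doxycycline without the hairpin or 4-hydroxytamoxifen without the fusion, so an effect of either compound itself cannot be told apart. The labels name 1 line, give no treatment times and leave unsaid whether the replicates are separate cultures, so the spread behind the p-values is that of these libraries and may be technical.

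SREBPs are transcription factors made as membrane proteins of the endoplasmic reticulum, where SCAP escorts them and senses cholesterol. When sterols are plentiful, INSIG proteins hold the SCAP and SREBP complex in place, and when sterols are scarce the complex leaves in COPII vesicles for the Golgi, where site-1 and site-2 proteases release the active factor. SREBP-2 mainly drives genes of cholesterol synthesis and uptake and SREBP-1 mainly drives genes of fatty acid synthesis. INSIG1 is itself an SREBP target, so its mRNA is often read as a gauge of the pathway, whereas MYLIP, a ubiquitin ligase for lipoprotein receptors, answers to the oxysterol receptors LXR.

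All 9 genes had promoter windows in the RefSeq tables (build GRCh38.p14, 250 bases before to 50 bases after a start, 10 windows), and 4 are shown, those of INSIG1, SREBF2 and SCAP for an E-box or a sterol regulatory element and that of STARD4 as an SREBP-2 target with CCAAT boxes. The motifs searched on both strands were a sterol regulatory element (TCACNCCAC), the E-box CACGTG, which MYC proteins can bind, and the CCAAT box that NF-Y binds beside SREBP. They do not overlap one another in these windows, and matches stand in capitals (ATTGG is CCAAT on the other strand).
INSIG1, chr7:155297628-155297927, plus strand: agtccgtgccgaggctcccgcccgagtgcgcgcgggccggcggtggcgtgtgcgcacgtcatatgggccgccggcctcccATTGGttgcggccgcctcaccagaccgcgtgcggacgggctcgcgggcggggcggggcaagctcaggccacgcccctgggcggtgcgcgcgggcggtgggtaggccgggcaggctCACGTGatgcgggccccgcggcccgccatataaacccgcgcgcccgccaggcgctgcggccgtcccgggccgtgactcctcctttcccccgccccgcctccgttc
SREBF2, chr22:41832855-41833154, plus strand: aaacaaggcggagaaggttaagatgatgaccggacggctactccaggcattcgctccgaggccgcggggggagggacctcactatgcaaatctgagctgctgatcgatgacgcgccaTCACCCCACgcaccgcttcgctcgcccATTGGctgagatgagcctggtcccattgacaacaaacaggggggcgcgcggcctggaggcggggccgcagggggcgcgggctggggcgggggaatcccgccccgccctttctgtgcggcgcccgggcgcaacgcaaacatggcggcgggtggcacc
STARD4, chr5:111512486-111512785, minus strand: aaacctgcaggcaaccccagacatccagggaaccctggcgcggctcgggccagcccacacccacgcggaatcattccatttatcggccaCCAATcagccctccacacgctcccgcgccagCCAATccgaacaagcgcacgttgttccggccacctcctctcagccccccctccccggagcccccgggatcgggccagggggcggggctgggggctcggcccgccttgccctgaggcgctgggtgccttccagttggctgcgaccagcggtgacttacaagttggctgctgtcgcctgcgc
SCAP, chr3:47475892-47476191, minus strand: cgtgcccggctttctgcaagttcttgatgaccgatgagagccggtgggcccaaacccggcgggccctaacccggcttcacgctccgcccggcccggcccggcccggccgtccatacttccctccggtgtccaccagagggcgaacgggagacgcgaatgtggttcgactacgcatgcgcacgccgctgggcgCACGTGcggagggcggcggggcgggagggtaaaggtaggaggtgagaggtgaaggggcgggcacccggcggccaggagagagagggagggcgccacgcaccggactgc
INSIG1 had an E-box 55 bases before the start and a CCAAT box 170 bases before it. SREBF2 had the sterol regulatory element TCACCCCAC 133 bases before the start and a CCAAT box 106 bases before it. STARD4 had CCAAT boxes 161 and 130 bases before the start, SCAP an E-box 58 bases before it, and MYLIP, not printed, CCAAT boxes 109 and 68 bases before it. None of these letters occurred in the windows of INSIG2, SREBF1, MBTPS1 and MBTPS2. Over all 35116 RefSeq windows, 1.13% held the sterol regulatory element, 7.26% the E-box and 34.6% the CCAAT box, so a CCAAT match is common. A match describes the letters and does not show binding.

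The libraries held between 44466458 and 57694970 reads, and values are CPM, reads of a gene per 1000000 reads of its library, so each value is a share. In bulk RNA, fewer cells of a type and less RNA per cell cannot be told apart. TCEAL1, the target of the hairpin, had 2.58, 2.50 and 1.73 CPM in OHT_Dox libraries and 2.62, 2.54 and 2.74 CPM in Dox libraries, against 8.23, 9.75 and 8.99 CPM in OHT libraries and 9.71, 9.11 and 10.7 CPM in Ctrl libraries. MYCN, whose reads from the fusion and from the cell's own gene cannot be told apart, had 376 to 470 CPM in OHT_Dox, 471 to 644 CPM in OHT, 513 to 564 CPM in Dox and 436 to 572 CPM in Ctrl libraries, and it fell by 0.34 ± 0.10 on the log2 scale in OHT_Dox cells against Dox cells (adjusted p = 0.019, limma). Mesenchymal neuroblastoma markers were high in every library (VIM 2223 to 3083 CPM), whereas among adrenergic markers HAND2 had 47.6 to 64.1 CPM. The 8 mesenchymal markers summed to 3463 to 3708 CPM in OHT_Dox, 4044 to 4287 CPM in OHT, 3530 to 3721 CPM in Dox and 4255 to 4560 CPM in Ctrl libraries, and the 7 adrenergic markers to 123 to 133, 108 to 122, 94.9 to 97.2 and 92.3 to 101 CPM in the same groups. The 3 epithelial markers summed to at most 3.26 CPM and the 3 haematopoietic markers to at most 0.450 CPM in any library. The part of these marker shifts in the results below was not tested. Single libraries stood apart for sterol genes, OHT replicate 1 high and Ctrl replicate 2 low, and values without single libraries stand beside many of the differences.

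INSIG1 (ENSG00000186480), the sterol-regulated retention protein, was highest in OHT cells and lowest where both compounds were given. It had 41.8, 38.6 and 41.9 CPM in OHT_Dox libraries and 151, 107 and 81.5 CPM in OHT libraries. It had 47.3, 37.5 and 52.6 CPM in Dox libraries and 87.0, 42.5 and 68.2 CPM in Ctrl libraries. All OHT_Dox libraries lay below all OHT libraries, whereas OHT overlapped Ctrl, Dox overlapped Ctrl, and OHT_Dox overlapped Dox. The order of the group means was OHT (113 ± 35 CPM), Ctrl (65.9 ± 22 CPM), Dox (45.8 ± 7.7 CPM) and OHT_Dox (40.8 ± 1.8 CPM; SD, n = 3 each), and no neighbours in that order were separated. The log2 difference was -1.42 ± 0.20 (SE) for OHT_Dox against OHT, a ratio of 0.374, and 0.79 ± 0.20 for OHT against Ctrl. It was -0.15 ± 0.20 for OHT_Dox against Dox and -0.47 ± 0.20 for Dox against Ctrl. The interaction, the OHT difference with Dox minus that without, was -0.95 ± 0.28.

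INSIG1 differed more between replicates than nearly all other genes did in OHT, Ctrl and Dox cells. Its spread among OHT libraries was known when the set was chosen, so its rank there is a description only. Its SD on the log2 scale was 0.45 in OHT and 0.52 in Ctrl libraries but 0.07 in OHT_Dox and 0.25 in Dox libraries, where the median over 13064 genes averaging 5 CPM or more was 0.08, 0.10, 0.08 and 0.06 in these groups. Of those genes, 99.8% had a smaller SD in OHT and 99.9% in Ctrl libraries, against 35.6% in OHT_Dox and 97.2% in Dox libraries. With 1862 to 8353 INSIG1 reads per library, counting error is small beside these differences. Leaving out Ctrl replicate 2 brought OHT against Ctrl to 0.51, and leaving out Ctrl replicate 1 brought it to 1.02. OHT_Dox against OHT was -1.19 without OHT replicate 1 and -1.63 without OHT replicate 3. Dox against Ctrl moved further, to -0.25 without Ctrl replicate 1 and -0.76 without Ctrl replicate 2. OHT_Dox against Dox was -0.05 without Dox replicate 3 and -0.29 without Dox replicate 2, and the interaction was -1.17 without Ctrl replicate 1 and -0.66 without Ctrl replicate 2.

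**Figure D1:**
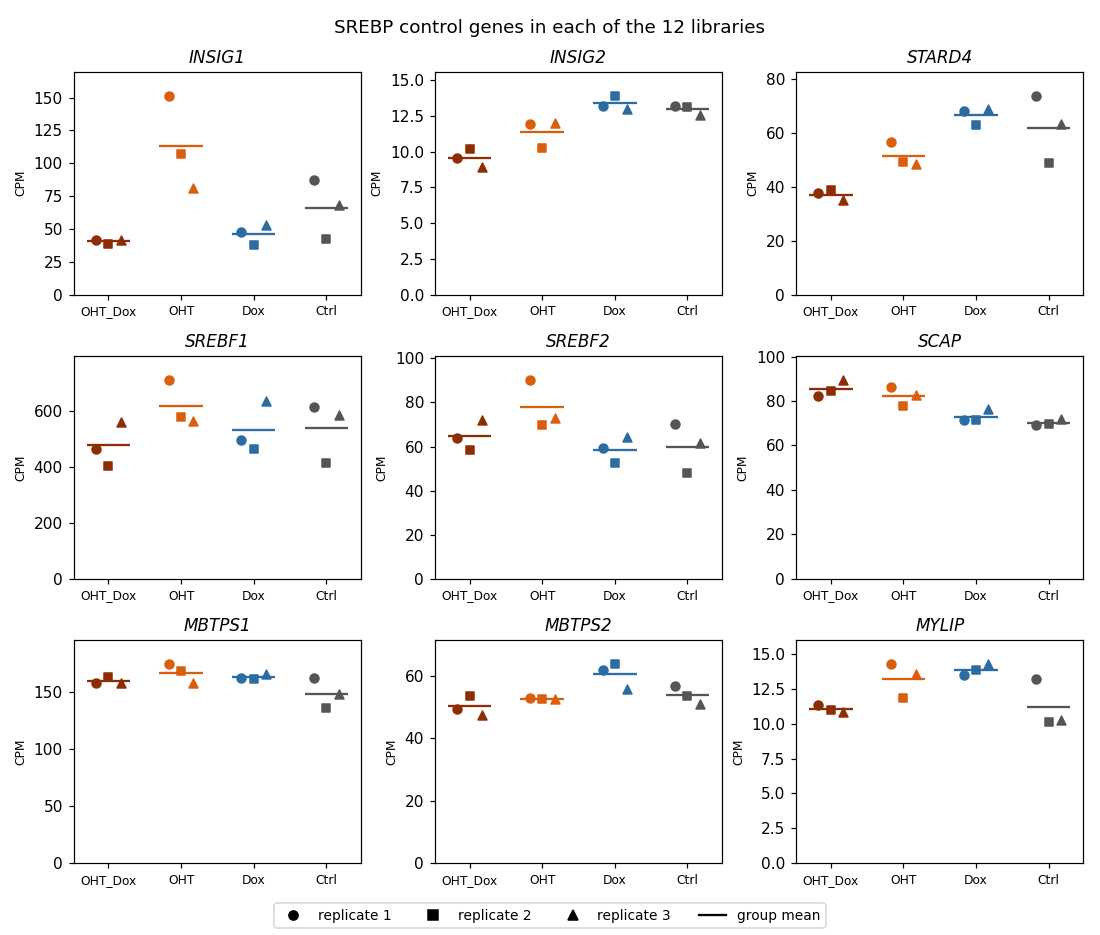
CPM of each gene in the 12 libraries, by group from left to right OHT_Dox, OHT, Dox and Ctrl; point shape gives the replicate number and the line the mean of 3 libraries. INSIG1 reached 151 CPM in OHT replicate 1 and stayed between 38.6 and 41.9 CPM in the 3 OHT_Dox libraries.

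INSIG2 (ENSG00000125629), the INSIG paralog that is not sterol-induced in most cells, was a fraction of INSIG1 per exon length: 2.42, 2.89, 3.38 and 3.28 CPM per kb in OHT_Dox, OHT, Dox and Ctrl cells, where INSIG1 had 11.2, 31.1, 12.5 and 18.1 CPM per kb. It had 9.58, 10.2 and 8.93 CPM in OHT_Dox libraries and 11.9, 10.3 and 11.98 CPM in OHT libraries. It had 13.2, 13.9 and 13.0 CPM in Dox libraries and 13.2, 13.1 and 12.6 CPM in Ctrl libraries. OHT_Dox libraries lay below OHT and below Dox libraries, OHT libraries lay below Ctrl libraries, and Dox overlapped Ctrl. The log2 differences were -0.24 ± 0.09 for OHT_Dox against OHT, -0.46 ± 0.09 for OHT_Dox against Dox, -0.18 ± 0.09 for OHT against Ctrl and 0.04 ± 0.09 for Dox against Ctrl (SE). The difference of OHT against Ctrl was -0.11 without OHT replicate 2, and that of Dox against Ctrl lay between 0.01 and 0.06 without single libraries. The INSIG paralogs thus had opposite signs in OHT against Ctrl, and the same sign in OHT_Dox against OHT.

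SREBF1 (ENSG00000072310) encodes SREBP-1 and was the most abundant of the 9 per exon length, at 59.2, 76.8, 66.1 and 66.9 CPM per kb in OHT_Dox, OHT, Dox and Ctrl cells. It had 463, 403 and 560 CPM in OHT_Dox libraries and 709, 577 and 564 CPM in OHT libraries. It had 495, 463 and 634 CPM in Dox libraries and 613, 413 and 585 CPM in Ctrl libraries. OHT_Dox libraries lay below OHT libraries by a narrow margin, and the other pairs of groups compared overlapped. The log2 difference was -0.38 ± 0.14 for OHT_Dox against OHT and 0.21 ± 0.14 for OHT against Ctrl, which became 0.03 without Ctrl replicate 2 and 0.32 without Ctrl replicate 1. It was -0.16 ± 0.14 for OHT_Dox against Dox, -0.02 without Dox replicate 3 and -0.28 without OHT_Dox replicate 3. Dox against Ctrl gave -0.01 ± 0.14, with -0.19 without Ctrl replicate 2 and 0.10 without Ctrl replicate 1, so its sign rested on single libraries. SREBF1 overlaps RAI1 on the opposite strand, which had 232 to 364 CPM, and as the strand setting of the counting is not given in the sources used here, reads of the overlap cannot be told apart.

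SREBF2 (ENSG00000198911) encodes SREBP-2 and had 64.1, 58.5 and 72.0 CPM in OHT_Dox libraries and 90.2, 69.9 and 73.0 CPM in OHT libraries. It had 59.2, 52.4 and 64.3 CPM in Dox libraries and 70.0, 47.9 and 61.5 CPM in Ctrl libraries. The groups overlapped in each of the 4 comparisons, and OHT replicate 1 was the highest library. The log2 differences were -0.26 ± 0.12 for OHT_Dox against OHT, 0.14 ± 0.12 for OHT_Dox against Dox, 0.38 ± 0.12 for OHT against Ctrl and -0.02 ± 0.12 for Dox against Ctrl (SE). Leaving out OHT replicate 1 brought OHT_Dox against OHT to -0.14, and leaving out Ctrl replicate 2 brought OHT against Ctrl to 0.23. OHT_Dox against Dox was 0.07 without OHT_Dox replicate 3 and 0.22 without OHT_Dox replicate 2, and Dox against Ctrl was -0.17 without Ctrl replicate 2 and 0.11 without Ctrl replicate 1. The antisense gene SREBF2-AS1 was low, at 2.46 to 3.94 CPM.

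SCAP (ENSG00000114650), the sterol-sensing escort, differed with OHT and hardly with Dox. It had 82.0, 84.5 and 89.5 CPM in OHT_Dox libraries and 86.1, 77.8 and 82.8 CPM in OHT libraries. It had 71.3, 71.6 and 76.2 CPM in Dox libraries and 69.4, 69.5 and 72.0 CPM in Ctrl libraries. Every library with OHT lay above every library without it. The log2 difference was 0.22 ± 0.06 for OHT_Dox against Dox and 0.22 ± 0.06 for OHT against Ctrl, and 0.05 ± 0.06 both for OHT_Dox against OHT and for Dox against Ctrl. Without single libraries OHT_Dox against OHT lay between 0.01 and 0.09 and Dox against Ctrl between 0.02 and 0.07. It was the only member higher in both OHT comparisons with no overlap of libraries.

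For the proteases that cut SREBPs in the Golgi, the highest library was 1.28 (MBTPS1) and 1.34 (MBTPS2) times the lowest. MBTPS1 (ENSG00000140943), site-1 protease, ranged from 136 CPM in Ctrl replicate 2 to 174 CPM in OHT replicate 1, and its groups overlapped in each of the 4 comparisons. Its log2 differences were -0.06 for OHT_Dox against OHT, -0.03 for OHT_Dox against Dox, 0.17 for OHT against Ctrl and 0.14 for Dox against Ctrl, each ± 0.06. Without Ctrl replicate 2 the differences from Ctrl were 0.11 for OHT and 0.07 for Dox, while those of OHT_Dox lay between -0.10 and -0.02 without single libraries. MBTPS2 (ENSG00000012174), site-2 protease, had 49.5, 53.7 and 47.6 CPM in OHT_Dox libraries, against 62.0, 63.7 and 55.8 CPM in Dox libraries. OHT_Dox libraries lay below Dox libraries, with a log2 difference of -0.26 ± 0.07. In OHT libraries it had 52.8, 52.6 and 52.7 CPM and in Ctrl libraries 56.6, 53.6 and 51.1 CPM, a difference of -0.03 ± 0.07 that lay between -0.06 and 0.01 without single libraries. The MBTPS2 difference was 0.17 ± 0.07 for Dox against Ctrl and -0.07 ± 0.07 for OHT_Dox against OHT, and libraries overlapped in both. YY2, an intronless gene on the same strand as MBTPS2 and overlapping it, had 3.96 to 6.56 CPM.

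STARD4 (ENSG00000164211), a soluble sterol carrier and SREBP-2 target, had the largest difference of the 9 between OHT_Dox and Dox cells. It had 37.5, 38.9 and 34.9 CPM in OHT_Dox libraries and 56.7, 49.05 and 48.2 CPM in OHT libraries. It had 68.1, 62.7 and 68.7 CPM in Dox libraries and 73.7, 48.6 and 63.1 CPM in Ctrl libraries. OHT_Dox libraries lay below all other libraries, and OHT overlapped Ctrl through Ctrl replicate 2. The log2 difference was -0.83 ± 0.10 for OHT_Dox against Dox and -0.46 ± 0.10 for OHT_Dox against OHT (SE). It was -0.25 ± 0.10 for OHT against Ctrl, opposite in sign to INSIG1, with -0.41 without Ctrl replicate 2 and -0.11 without Ctrl replicate 1. For Dox against Ctrl it was 0.12 ± 0.10, with -0.04 without Ctrl replicate 2 and 0.26 without Ctrl replicate 1. STARD4-AS1, on the opposite strand, had 17.6 to 27.3 CPM, and reads of the overlap cannot be told apart.

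MYLIP (ENSG00000007944), the ubiquitin ligase that marks lipoprotein receptors for breakdown, had 11.4, 10.99 and 10.8 CPM in OHT_Dox libraries and 14.3, 11.8 and 13.6 CPM in OHT libraries. It had 13.5, 13.9 and 14.3 CPM in Dox libraries and 13.2, 10.1 and 10.2 CPM in Ctrl libraries. Dox libraries lay above Ctrl libraries, whereas OHT_Dox libraries lay below OHT libraries. The log2 difference was -0.24 ± 0.10 for OHT_Dox against OHT and 0.31 ± 0.10 for Dox against Ctrl, so the sign of the Dox difference changed with OHT. It was -0.31 ± 0.10 for OHT_Dox against Dox and 0.24 ± 0.10 for OHT against Ctrl, with 0.36 without Ctrl replicate 1 and 0.17 without Ctrl replicate 2.

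Counted over the 9 genes, 5 lay in OHT_Dox libraries below all OHT libraries and 0 above, where 8.33% of all 18674 genes lay wholly below and 10.4% wholly above (18.7% in all). For OHT_Dox against Dox 4 lay below and 1 above, beside 23.9% and 17.4% of all genes (41.2% in all). For OHT against Ctrl 1 lay below (INSIG2) and 1 above (SCAP), beside 16.7% and 17.5% (34.2% in all), and for Dox against Ctrl 0 lay below and 1 above (MYLIP), beside 9.77% and 19.1% (28.9% in all). As the genes were chosen with these data known, nothing is read from these counts.

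**Figure D2:**
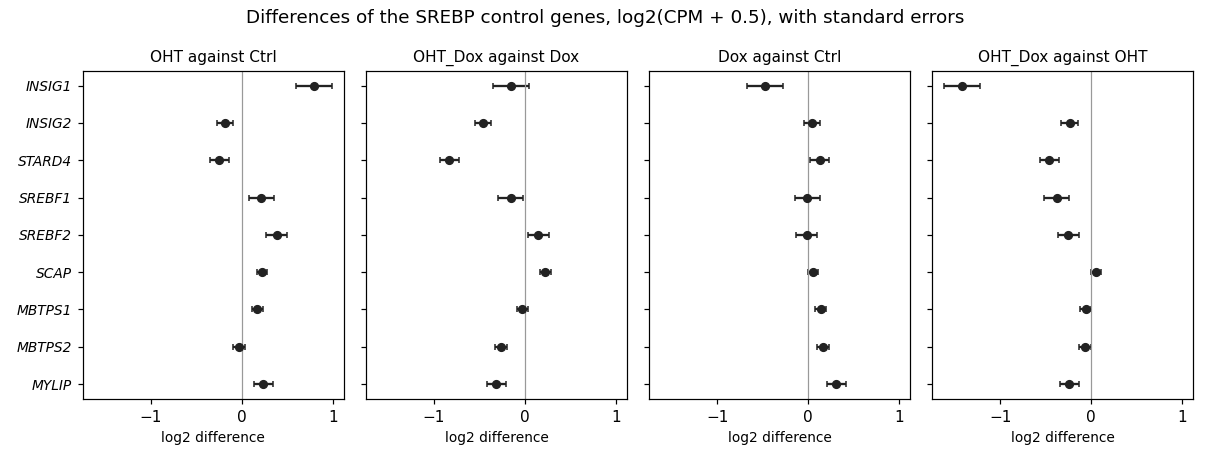
Log2 differences of the 9 genes in the 4 comparisons, on the log2(CPM + 0.5) scale, with standard errors from 3 libraries per group. INSIG1 had 0.79 for OHT against Ctrl and -1.42 for OHT_Dox against OHT; SCAP had 0.22 in both OHT comparisons.

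The genes that SREBPs drive were then taken from lists of known targets and tested in the fit over all genes, with limma on log2(CPM + 0.5) and Benjamini-Hochberg adjusted p-values over 18674 genes. Of all genes, 2.10% changed between OHT_Dox and OHT cells, 0.509% up and 1.59% down. Of 22 tested genes of sterol synthesis and uptake, 10 fell in OHT_Dox cells against OHT cells and 0 rose, with a median log2 fold change of -0.30 where the median of all genes was 0.02. Of 12 lipogenic SREBP-1 targets 4 fell and 0 rose, with a median of -0.29. These counts rest in part on OHT replicate 1, without which 2 sterol and 2 lipogenic genes fell. Without OHT_Dox replicate 2 the counts were 5 and 2, and without OHT_Dox replicate 1 they were 6 and 3.

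HMGCS1, which makes the precursor of mevalonate, had 32.2 to 32.8 CPM in OHT_Dox libraries, against 47.6 to 57.0 CPM in OHT libraries. Its log2 fold change was -0.65 ± 0.09 (adjusted p = 0.00035, limma). IDI1, an isoprenoid isomerase, had 51.6 to 56.9 CPM in OHT_Dox libraries against 73.9 to 94.7 CPM in OHT libraries, with a fold change of -0.69 ± 0.11 (adjusted p = 0.00081). MSMO1, an enzyme of sterol demethylation, fell by 0.55 ± 0.11 on the log2 scale (adjusted p = 0.0082), and SQLE, squalene epoxidase, by 0.32 ± 0.06 (adjusted p = 0.0062). Without OHT replicate 1 neither MSMO1 nor SQLE passed, with log2 fold changes of -0.45 and -0.27. Also among those that fell, named after their values were seen, were MVD, FDPS, FDFT1 and CYP51A1. Among lipogenic genes FADS2 and FADS1, fatty acid desaturases, had log2 fold changes of -0.28 ± 0.05 (adjusted p = 0.0041) and -0.49 ± 0.09 (adjusted p = 0.0046). SCD, the stearoyl-CoA desaturase, had 593 to 711 CPM in OHT_Dox libraries against 1076 to 1650 CPM in OHT libraries, a log2 fold change of -0.98 ± 0.20 (adjusted p = 0.0089), and did not pass without OHT replicate 1 or without OHT_Dox replicate 2. FASN, fatty acid synthase, was at the threshold, with a log2 fold change of -0.91 ± 0.24 (adjusted p = 0.0496). Its call was lost in 11 of 19 alternative settings. With a pseudocount of 1 or 0.1, or with no filter, 3 lipogenic genes fell.

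The sterol and lipogenic genes that changed in OHT cells against Ctrl cells were all higher in OHT cells. Of all genes, 21.4% changed, 12.6% up and 8.79% down. Of the 22 sterol genes 5 rose and 0 fell, and of the 12 lipogenic genes 6 rose and 0 fell, with medians of 0.07 and 0.32 where the median of all genes was -0.01. The sterol genes that changed, 5 of 22, are thus near the share of all genes that changed. Without Ctrl replicate 1, 6 sterol and 10 lipogenic genes rose. Without Ctrl replicate 2, 4 of each list rose and 1 sterol gene fell, and without OHT replicate 1, 4 sterol and 5 lipogenic genes rose. DHCR7, of the last steps of cholesterol synthesis, had 139 to 193 CPM in OHT libraries against 53.2 to 94.0 CPM in Ctrl libraries, a log2 fold change of 1.05 ± 0.16 (adjusted p = 8.6e-05, limma). SQLE rose by 0.61 ± 0.06 (adjusted p = 4.4e-07) and CYP51A1, a sterol demethylase, by 0.40 ± 0.07 (adjusted p = 0.00017). HMGCS1 did not pass, with a log2 fold change of 0.06. Among lipogenic genes MID1IP1, which promotes acetyl-CoA carboxylase assembly, rose by 0.84 ± 0.07 (adjusted p = 5.1e-08), ELOVL6, a fatty acid elongase, by 0.77 ± 0.10 (adjusted p = 8.1e-06), SCD by 0.96 ± 0.20 (adjusted p = 0.0015) and FADS1 by 0.37 ± 0.09 (adjusted p = 0.0064). This comparison and OHT_Dox against OHT share the OHT libraries.

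With the hairpin induced, the sterol genes went both ways. Of all genes, 26.0% changed between OHT_Dox and Dox cells, 11.5% up and 14.5% down. Of the 22 sterol genes 4 rose and 6 fell, and of the 12 lipogenic genes 2 rose and 0 fell, with medians of -0.08 and 0.02 where the median of all genes was -0.03. SQLE rose by 0.43 ± 0.06 (adjusted p = 3e-05, limma) and DHCR7 by 0.70 ± 0.16 (adjusted p = 0.0032), as MID1IP1 did by 0.69 ± 0.07 (adjusted p = 6.6e-07) and ELOVL6 by 0.31 ± 0.10 (adjusted p = 0.023). HMGCS1 had 32.2 to 32.8 CPM in OHT_Dox libraries against 39.4 to 42.5 CPM in Dox libraries, a log2 fold change of -0.33 ± 0.09 (adjusted p = 0.012), and is named here after its values were seen. ELOVL6 did not pass when OHT_Dox replicate 1 or 2 or Dox replicate 3 was left out. Without Dox replicate 3, 3 sterol genes fell, and 2 rose when OHT_Dox replicate 1, OHT_Dox replicate 2 or Dox replicate 2 was left out.

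**Figure D3:**
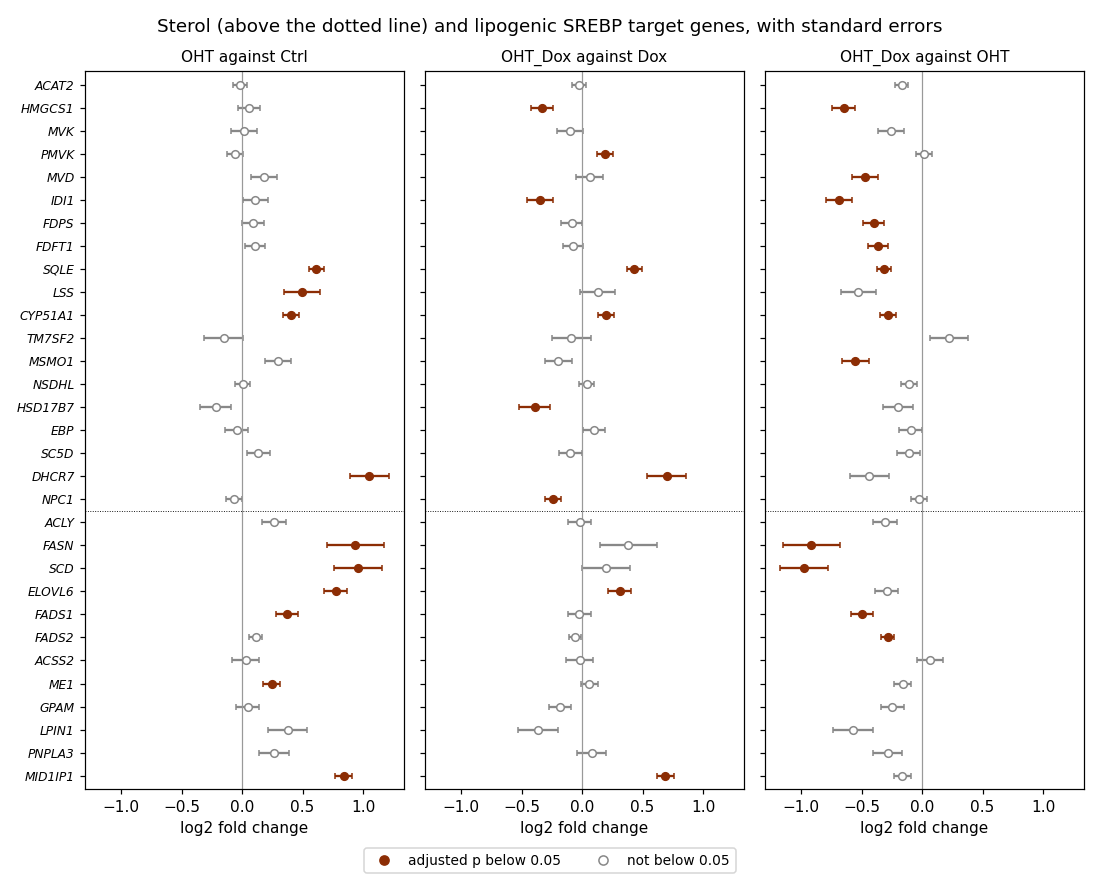
Log2 fold changes with standard errors of 19 of the 22 sterol genes (top) and the 12 lipogenic genes (bottom) in 3 comparisons; filled points passed an adjusted p below 0.05 in limma. Of the genes shown, 8 sterol and 4 lipogenic genes fell and 0 rose for OHT_Dox against OHT, whereas for OHT_Dox against Dox 4 sterol genes rose and 4 fell.

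Between Dox and Ctrl cells 8.29% of all genes changed, 5.68% up and 2.61% down, a split of 1061 up and 487 down that became 519 up and 771 down after TMM rescaling. Of the 22 sterol genes 0 rose and 1 fell, PMVK, a kinase of the mevalonate pathway, with a log2 fold change of -0.23 ± 0.06 (adjusted p = 0.033, limma), a call lost when Dox replicate 1, Dox replicate 2, Ctrl replicate 2 or Ctrl replicate 3 was left out. The sterol median was -0.14 where that of all genes was 0.05, and 5 of the 22 fell after TMM rescaling, 4 with edgeR and 10 with DESeq2, while 0 to 3 fell when single libraries were left out. Of the 12 lipogenic genes 0 changed in limma, the closest being FADS2 with -0.11 ± 0.05 (adjusted p = 0.17) and ELOVL6 with 0.17 ± 0.10 (adjusted p = 0.27). With the interaction of OHT and Dox, which tests whether the OHT effect differed with the hairpin, 0.00% of genes passed in limma, 2879 had an unadjusted p below 0.05, and edgeR called 0 and DESeq2 1. The interaction was below 0 for 18 of 22 sterol genes (median -0.19) and 12 of 12 lipogenic genes (median -0.25). The median of all genes was -0.04, but the share of all genes below 0 was not counted, so these sign counts lack a background. OHT replicate 1 was highest and Ctrl replicate 2 lowest in their groups for 18 sterol and 10 lipogenic genes, against 21.4% of all genes. The signs of genes that share library deviations in this way are not separate evidence. MSMO1 had -0.49 ± 0.16, LPIN1, a phosphatidate phosphatase, -0.74 ± 0.23 and ELOVL6 -0.46 ± 0.14, each with an adjusted p of 0.22. Without Ctrl replicate 1, 1041 genes passed, among them 6 sterol and 4 lipogenic genes. Leaving out any other single library gave 0 genes.

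Of 5 further lists, some hold partners that carry, hold or destroy the SREBP machinery. Others hold substrates and conjugating enzymes of MYLIP, LXR receptors and targets, and other sterol carriers. Their counts stand beside the shares of all genes that changed: 21.4% for OHT against Ctrl, 26.0% for OHT_Dox against Dox, 8.29% for Dox against Ctrl and 2.10% for OHT_Dox against OHT. Of 16 partners in retention and degradation, 4 rose and 2 fell in OHT cells against Ctrl cells and 4 rose and 1 fell in OHT_Dox cells against Dox cells. Of all genes 12.6% rose and 8.79% fell in the first of these comparisons and 11.5% rose and 14.5% fell in the second, so 5 of 16 in the second is near the share of all genes. FAF2, which recruits the segregase VCP to degradation sites, had log2 fold changes of -0.39 ± 0.06 for OHT_Dox against Dox (adjusted p = 5.9e-05, limma), -0.21 ± 0.06 for OHT against Ctrl (adjusted p = 0.016) and 0.26 ± 0.06 for Dox against Ctrl (adjusted p = 0.016). AUP1, which recruits a conjugating enzyme to lipid droplets and the endoplasmic reticulum, rose by 0.27 ± 0.06 in OHT_Dox cells against Dox cells (adjusted p = 0.0024), as did USP20, a deubiquitinase, by 0.35 ± 0.09 (adjusted p = 0.0044). In OHT cells against Ctrl cells UBE2G2, a conjugating enzyme, rose by 0.21 ± 0.06 (adjusted p = 0.023) and PGRMC1, a binding partner of INSIG1 and SCAP, by 0.19 ± 0.06 (adjusted p = 0.027), and in Dox cells against Ctrl cells C12orf49, which is needed for SREBP activation, rose by 0.23 ± 0.07 (adjusted p = 0.038). Each of these calls of FAF2 against Ctrl cells, UBE2G2, PGRMC1 and C12orf49 was lost when certain single libraries were left out, among them Ctrl replicate 2 for UBE2G2, PGRMC1, C12orf49 and the Dox comparison of FAF2, and Ctrl replicate 1 for its OHT comparison. Without Ctrl replicate 2, 1 of the 16 rose in OHT cells against Ctrl cells, and without OHT replicate 2, 0 fell. Between OHT_Dox and OHT cells 0 of 16 changed.

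Of 10 COPII coat genes, which carry SCAP and SREBP out of the endoplasmic reticulum, 1 rose and 5 fell in OHT_Dox cells against Dox cells, where 11.5% of all genes rose and 14.5% fell. SEC24A, a cargo adaptor, had a log2 fold change of -0.42 ± 0.08 (adjusted p = 0.00047, limma), SEC23A -0.28 ± 0.07 (adjusted p = 0.0045) and SEC23B -0.24 ± 0.06 (adjusted p = 0.0027). SEC31A, of the outer coat, rose by 0.28 ± 0.06 (adjusted p = 0.00097), and by 0.39 ± 0.06 in OHT cells against Ctrl cells (adjusted p = 3.9e-05), where SEC23B fell (-0.19 ± 0.06, adjusted p = 0.02), a call lost without OHT replicate 2, Ctrl replicate 1 or Ctrl replicate 3. The adaptors SEC24A, SEC24B and SEC24D rose in Dox cells against Ctrl cells by 0.33 ± 0.08, 0.27 ± 0.07 and 0.30 ± 0.09 (adjusted p = 0.018, 0.021 and 0.038), and 0 of the 3 passed without Dox replicate 2. Between OHT_Dox and OHT cells 0 of 10 changed.

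Of 7 substrates and conjugating enzymes of MYLIP, LRP8, a receptor that MYLIP degrades, rose by 0.79 ± 0.08 in OHT cells against Ctrl cells (adjusted p = 9.8e-07, limma) and by 0.51 ± 0.08 in OHT_Dox cells against Dox cells (adjusted p = 0.00013). UBE2D1, a conjugating enzyme, rose by 0.21 ± 0.07 in OHT cells against Ctrl cells (adjusted p = 0.049), at the threshold. This call was lost in 12 of 19 alternative settings. Of 10 LXR receptors and targets, 0 rose and 2 fell in OHT_Dox cells against OHT cells and in Dox cells against Ctrl cells, and 1 rose and 1 fell in each of the OHT comparisons. The counts in the OHT comparisons are near the shares of all genes that changed, 21.4% for OHT against Ctrl and 26.0% for OHT_Dox against Dox, and of all genes 1.59% fell for OHT_Dox against OHT and 2.61% for Dox against Ctrl. ABCA1, the cholesterol exporter, was low, with 0.720 to 1.40 CPM in OHT_Dox, 1.80 to 3.57 CPM in OHT, 1.499 to 1.74 CPM in Dox and 2.94 to 3.44 CPM in Ctrl libraries. It fell by 0.83 ± 0.20 in OHT_Dox cells against OHT cells (adjusted p = 0.031) and by 0.77 ± 0.20 in Dox cells against Ctrl cells (adjusted p = 0.025), but did not pass in either when single libraries of these groups, such as OHT replicate 1 or Dox replicate 2, were left out. RXRA, the partner receptor of LXR, rose by 0.26 ± 0.07 in OHT_Dox cells against Dox cells (adjusted p = 0.0066) and by 0.30 ± 0.07 in OHT cells against Ctrl cells (adjusted p = 0.0025).

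Of 11 other sterol carriers, 1 rose and 4 fell in OHT_Dox cells against Dox cells, and 0 rose and 2 fell in OHT cells against Ctrl cells. Of all genes 11.5% rose and 14.5% fell for OHT_Dox against Dox, and 21.4% changed for OHT against Ctrl, to which 2 of 11 is near. OSBP, an oxysterol-binding exchanger, had 50.8 to 53.8 CPM in OHT_Dox libraries against 67.9 to 70.0 CPM in Dox libraries, a log2 fold change of -0.39 ± 0.07 (adjusted p = 0.00019, limma). GRAMD1B, which moves cholesterol from the plasma membrane, had -0.47 ± 0.10 (adjusted p = 0.0013), and STARD3NL, a contact-site protein, -0.25 ± 0.06 (adjusted p = 0.006), whereas GRAMD1A rose by 0.23 ± 0.06 (adjusted p = 0.0084). In OHT cells against Ctrl cells GRAMD1B had -0.32 ± 0.10 (adjusted p = 0.025) and OSBP -0.20 ± 0.07 (adjusted p = 0.036), and neither passed without OHT replicate 2 or 3 or without Ctrl replicate 1 or 3. STARD4, described above, shared the sign of OSBP and GRAMD1B in both comparisons.

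The genes most like INSIG1 over the 12 libraries were sought among the same 13064 genes, by the root mean square difference of log2 profiles centred on their means. INSIG1's own profile had a root mean square of 0.63. The nearest 5 were SCD (0.23), FASN (0.29), PFKFB4, a regulator of glycolysis (0.30), IL21R, a cytokine receptor (0.32), and TGFB2-AS1, an antisense RNA (0.34). With profiles centred on group means, so that only differences among replicates counted, INSIG1's root mean square was 0.30 and the nearest were SCD (0.07), LPIN1 (0.09), DHCR7 (0.13), LSS, which cyclises squalene epoxide (0.13), and FASN (0.14). All these points share the same 12 libraries and their depths. HMGCS1 ranked 35 by the first measure and 81 by the second.

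The order of the replicates was shared by some genes too. INSIG1 ran from high to low as replicates 3, 1, 2 in OHT_Dox, 1, 2, 3 in OHT, 3, 1, 2 in Dox and 1, 3, 2 in Ctrl libraries. In OHT_Dox, replicates 3 and 1 were nearly tied (41.87 and 41.81 CPM), so little can be read from their order. Of 18674 genes, 34 (0.182%, INSIG1 included) had INSIG1's order in all 4 groups. Among them were SREBF1, LSS, FDPS, MID1IP1 and MYCN, and also genes outside the lists, such as IL21R. Of the other members, SREBF2, MBTPS1 and STARD4 had it in 3 groups, MYLIP in 1, and INSIG2, SCAP and MBTPS2 in 0. OHT replicate 1 was the highest OHT library for 18 of 22 sterol genes, 11 of 12 lipogenic genes and 8 of the 9 members, where this held for 44.0% of all genes. These 8 include INSIG1, whose spread among OHT libraries was known when the set was chosen. They also include MBTPS2, whose OHT libraries were nearly tied (52.6 to 52.8 CPM). Ctrl replicate 2 was the lowest Ctrl library for 19 of 22 sterol genes, 10 of 12 lipogenic genes and 6 of the 9 members, where this held for 39.8% of all genes. The mean deviation of the sterol genes from their group mean was 0.13 in OHT replicate 1 and -0.12 in OHT replicate 3, where INSIG1 deviated by 0.46 and -0.43 (log2). In Ctrl replicates 1 and 2 the sterol mean was 0.13 and -0.17, where INSIG1 deviated by 0.46 and -0.57. The labels record no batch, and the source of these shared deviations was not tested.

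**Figure D4:**
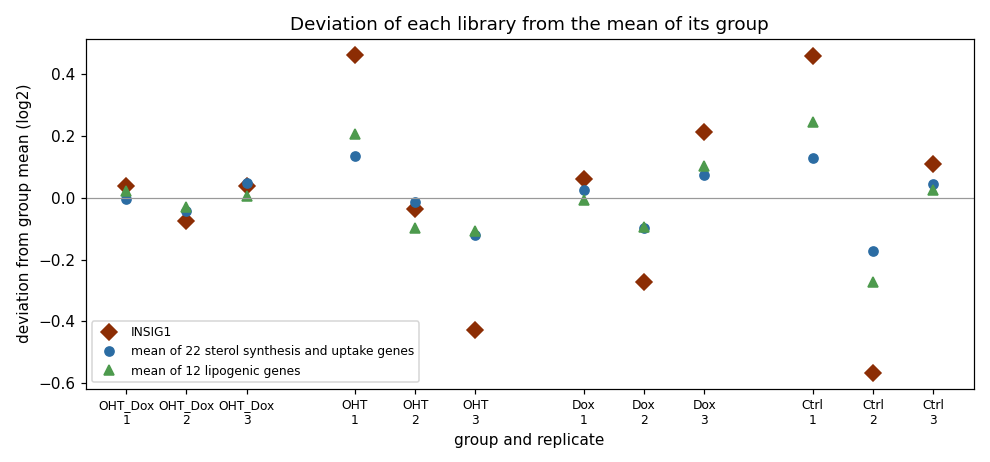
Deviation of each library from the mean of its group (log2) for INSIG1, the mean of 22 sterol genes and the mean of 12 lipogenic genes; libraries run along the horizontal axis as OHT_Dox, OHT, Dox and Ctrl replicates 1 to 3. INSIG1 deviated by 0.46 in OHT replicate 1 and by -0.57 in Ctrl replicate 2, and the list means had the same signs there.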

How the data were processed

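Poly(A) RNA of 12 SHEP libraries was measured, 3 in each of 4 groups taken from the labels. The deposited table holds CPM that the authors made from read counts, scaled within each library to the total of 28576 genes. For RNA and ChIP data together, tools listed in the submitters' processing notes are featureCounts, STAR, Bowtie, Bowtie2, FastQC and DRAGEN, with builds mm10 and hg19. Which tool made the table, its version, the annotation and the strand setting are not given in the sources used here. All values were whole multiples of 1 read within 0.01 reads, so whole reads were recovered (100% of values) and gave 44466458 to 57694970 reads per library.

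Genes with at least 0.5 CPM in at least 3 libraries (18674) were fitted with limma 3.58.1 in R 4.3.3 on log2(CPM + 0.5), with 1 mean per group over all 12 libraries, empirical Bayes with a mean trend, and Benjamini-Hochberg adjustment, with calls at an adjusted p below 0.05. Fold changes are on this scale, which understates changes of low genes. Levels per kb divide CPM by the union exon length of GENCODE 29 (GRCh38), used for length and overlap only.

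The members and lists were chosen with earlier results of these data known. Of 93 listed genes 91 were in the table and 88 tested, and the other 2 were not analysed here. Some genes that the naming rule picks are not reported here. The text names all members, TCEAL1 and MYCN, in each list and comparison up to 4 called genes with the smallest p (up to 2 where none was called), and the 5 genes nearest to INSIG1 by each measure.

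Alternatives were pseudocounts of 1 and 0.1, no filter, TMM rescaling, edgeR 4.0.16 quasi-likelihood tests and DESeq2 1.42.0 on recovered reads, a replicate block, and leaving out each library. Same-numbered libraries were not taken as pairs, since the labels do not say that a number marks a shared culture. The deviations of same-numbered libraries had correlations of -0.174 to 0.330. Differently numbered libraries were not compared in this way, so these correlations do not decide whether the numbers pair the libraries.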

Additional observations from a re-analysis of the deposited data

Results flagged for a closer look

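For RNF139, a ubiquitin ligase of the endoplasmic reticulum, all OHT_Dox libraries lay below all Dox libraries and all OHT libraries above all Ctrl libraries. RNF139 averaged 28.6 ± 2.5 CPM in OHT_Dox against 31.8 ± 0.58 CPM in Dox libraries, and 30.1 ± 1.2 CPM in OHT against 27.2 ± 1.3 CPM in Ctrl libraries (SD, n = 3 each). Neither OHT difference passed (adjusted p = 0.13 with Dox and 0.18 without, limma), nor did the difference of the log2 effects, -0.30 ± 0.10 (adjusted p = 0.22).

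For SCP2, a sterol carrier, the libraries lay in the same way, with 48.7 ± 1.3 CPM in OHT_Dox against 53.9 ± 1.2 CPM in Dox libraries, and 53.9 ± 0.46 CPM in OHT against 49.8 ± 3.4 CPM in Ctrl libraries. Neither OHT difference passed (adjusted p = 0.080 with Dox and 0.19 without, limma), nor did the difference of the log2 effects, -0.26 ± 0.09 (adjusted p = 0.22).

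For MYLIP all OHT_Dox libraries lay below all OHT libraries and all Dox libraries above all Ctrl libraries, with log2 differences of -0.24 for OHT_Dox against OHT and 0.31 for Dox against Ctrl, a difference of -0.55 that was not tested, since MYLIP was chosen with its values known.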

How the results depend on the processing

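For named pathway genes, the 59 results that had passed in the main fit were recomputed under 19 settings. Of these values 1024 kept their direction and side of the threshold, 97 kept the direction but no longer passed, and none changed sign. As the 59 were picked for passing with the smallest p, a sign change was unlikely from the outset. Named results that had not passed are not counted here. For the 9 members, 841 recomputed differences moved by less than 1 SD between replicates and 14 moved further, among them STARD4 in the interaction (-0.42 without Ctrl replicate 2, against -0.59). This measure is lenient for genes that vary between replicates. For INSIG1 in Dox against Ctrl it counted 0 settings as moved, although -0.47 became -0.25 without Ctrl replicate 1. Differences near 0 changed sign with TMM rescaling, such as INSIG2 in Dox against Ctrl (-0.01, against 0.04) and MBTPS1 in OHT_Dox against Dox (0.01, against -0.03). Other settings changed signs too, with the interaction of SCAP reversed in 10 settings and SREBF1 in Dox against Ctrl in 4. Between Dox and Ctrl cells, 992 genes passed with no filter and 2525 with the replicate block, against 1548, and of the pathway genes 5 passed with no filter, 17 with DESeq2 and 14 with the replicate block, against 8. Between OHT_Dox and OHT cells 685 genes passed with DESeq2 and 631 with the replicate block, against 392, and 21 pathway genes passed with the block against 16. For the interaction DESeq2 called 1 gene where limma called 0. The numbers are not known to pair the libraries, so the block is given for completeness. Leaving out 1 library gave 2813 to 4302 genes for OHT against Ctrl (18 to 25 pathway genes), 3556 to 5132 for OHT_Dox against Dox (23 to 34), 197 to 3180 for Dox against Ctrl (1 to 13), 196 to 503 for OHT_Dox against OHT (5 to 21, with 5 without OHT replicate 1) and 0 to 1041 for the interaction (0 to 12, the highest without Ctrl replicate 1). The causes were not tested. With 3 libraries per group, small changes of the pathway genes may go undetected, while depth was not the limit for the members, which had at least 397 reads in every library.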
